A study of Mus musculus with 12 samples.

Results

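The genes described here encode the actin monomers and the proteins that hold, move or crosslink actin in B cells. They are 10 of the 12212 gene symbols listed in each library: the actins Actb and Actg1, the beta-thymosins Tmsb4x and Tmsb10, the monomer-handling proteins Pfn1 and Cfl1, the Arp2/3 subunits Arpc2 and Arpc3, and the filament proteins Coro1a and Lcp1. They were taken by symbol, and all 10 were listed and passed the filter on low counts. The choice was made with earlier results of these data in view, above all the levels in 3 of the 12 libraries, so the contrast of those 3 libraries with the other 9 is a description and carries no test.

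Germinal center B cells were sorted from spleens of NZBWF1/J mice, an F1 hybrid that develops a lupus-like disease, and RNA-seq was made from 1000 cells per library. Libraries came from dark zone cells, the dividing and mutating B cells, or from light zone cells, which are selected there by antigen and T cell help. Controls were untreated, and no source used here gives the age of the control mice. Treated mice had received CTLA4-Ig (6 doses of 200 ug), which blocks CD28 costimulation, together with anti-CD40L (6 doses of 250 ug), which blocks the T cell signal to CD40. The doses were spread over 2 weeks, with a start at 18 weeks of age. Each combination of zone and treatment had 3 libraries, with totals between 16032746 and 26837714 counts, so counting error is small for genes at the levels given here. The sources do not say whether replicates were separate mice, nor whether dark and light zone libraries of a number shared a mouse, so a p-value here speaks only of the spread among libraries.

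The 3 libraries are replicates 1 and 2 of dark zone treated cells (columns S38 and S39) and replicate 2 of light zone treated cells (column S37). They stood apart from the other 9 over all genes. Counts above 0 were found for 12188 to 12195 symbols in these 3 and for 11384 to 11960 in the other 9, and the TMM scaling factors were 1.35 to 1.44 against 0.815 to 0.988. All 3 are treated, so for any difference that rests on them, treatment and the state of these libraries cannot be told apart. Each treated group also kept libraries like the controls: dark zone treated replicate 3 and light zone treated replicates 1 and 3. Defining markers of germinal center B cells were present in every library, though not at like levels. Cd79a, a signalling chain of the B cell receptor, stood at 1689 to 2125 CPM in the 3 libraries and 2193 to 3278 CPM in the other 9. Of 10 listed markers 3 were lower in the 3 libraries without overlap (Cd79a, Fas and Rgs13) and 1 higher (S1pr2). Over all tested genes these shares were 16.7% and 13.7%. Rgs13 was at 166 to 254 against 1503 to 2514 CPM, and S1pr2 at 299 to 328 against 68.5 to 169 CPM. CPM are counts scaled to a common library size, with TMM factors.

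Actin monomers assemble into filaments that give a B cell its shape, carry its migration and organise its antigen receptors. Thymosins bind monomers and keep them out of filaments, whereas profilin feeds monomers to growing ends and cofilin severs old filaments. The Arp2/3 complex starts branches on existing filaments, coronin 1A regulates that complex and cofilin in leukocytes, and L-plastin bundles filaments.

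Beta-actin and gamma-actin are near-identical proteins made from separate genes, Actb on chromosome 5 (142903115 to 142906754, minus strand) and Actg1 on chromosome 11 (120345690 to 120348542, minus strand; positions on mm10 from GENCODE M21). Their coding sequences have 1128 bases each, of which 1000 (88.7%) are identical, with a longest identical stretch of 62 bases. The first 60 coding bases are shown because the proteins differ near their start, and the capitals mark the bases at which both genes differ.
Actb: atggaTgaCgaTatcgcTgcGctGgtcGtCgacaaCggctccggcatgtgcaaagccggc
Actg1: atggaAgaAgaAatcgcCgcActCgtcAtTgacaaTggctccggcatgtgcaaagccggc
Identical stretches are short against a transcript, but no source used here says how reads from them were assigned, so some counts of either actin may come from the other. Longest annotated transcripts are 1920 bases for Actb and 1952 bases for Actg1, and exons of Actg1 share 83 and 64 bases with the miRNA genes Gm23419 and Mir6935.

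Actb held rank 1 or 2 among all genes by count in the 3 libraries and ranks 18 to 47 in the other 9. Dark zone controls held 3096, 2860 and 2678 CPM of Actb, and light zone controls 2610, 3222 and 3672 CPM. Treated dark zone libraries held 13883, 23305 and 3508 CPM, and treated light zone libraries 4251, 12342 and 3985 CPM, in replicate order. The 3 libraries thus lay above the other 9 without overlap, the lowest of them 2.90 times the highest of the others, and the ratio of medians was 4.31. The remaining treated libraries lay at 3508 to 4251 CPM, next to the controls, with dark zone treated replicate 3 inside the control range. In bulk RNA, more cells with a transcript and more of the transcript per cell cannot be told apart, and likewise for fewer and less.

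Actg1 shifted in the same direction by less. In dark zone controls Actg1 was at 1636, 1206 and 1370 CPM, and in light zone controls at 1204, 1742 and 1721 CPM. Treated dark zone libraries reached 2630, 4051 and 2040 CPM, and treated light zone libraries 1512, 3034 and 2026 CPM. Again the 3 libraries were above all others, by a log2 ratio of medians of 0.89 against 2.11 for Actb.

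Because the actins shifted unequally, the make-up of actin transcripts differed, and this share does not depend on any scaling between libraries. Actb made 80.3 to 85.2% of the summed actin counts in the 3 libraries and 63.2 to 73.8% in the other 9. In controls the share was 67.3% ± 2.65 in the dark zone and 67.1% ± 1.94 in the light zone (SD, n = 3 each). The zones differed by -0.164 percentage points (light minus dark; exact two-sided permutation test, p = 1, where 3 against 3 cannot go below 0.1).

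The beta-thymosins are small monomer-binding proteins, Tmsb4x from chromosome X (167207093 to 167209315, minus strand) and Tmsb10 from chromosome 6 (72957347 to 72958748, minus strand). Each coding sequence has only 135 bases, printed whole because it carries the entire thymosin and shows how far the paralogs have diverged. They share 95 bases (70.4%), with no identical stretch longer than 10 bases. Capitals mark the bases that differ.
Tmsb4x: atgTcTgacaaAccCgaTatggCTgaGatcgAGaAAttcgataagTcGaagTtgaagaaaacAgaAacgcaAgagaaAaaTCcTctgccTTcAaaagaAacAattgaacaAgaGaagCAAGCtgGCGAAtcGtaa
Tmsb10: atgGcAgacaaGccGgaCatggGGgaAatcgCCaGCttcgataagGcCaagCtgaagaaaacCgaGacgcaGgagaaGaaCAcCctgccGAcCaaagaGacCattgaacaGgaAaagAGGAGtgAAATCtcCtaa

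Tmsb4x had the highest count of all genes in each of the other 9 libraries and ranks 3 to 4 in the 3. Dark zone controls had 24433, 28304 and 22447 CPM of Tmsb4x, and light zone controls 29917, 25812 and 28184 CPM. Treated dark zone libraries had 5089, 5274 and 21896 CPM, and treated light zone libraries 25894, 6166 and 24083 CPM. The 9 libraries spanned a narrow range, and the 3 lay far below it, with a log2 ratio of medians of -2.29. Dark zone treated replicate 3, at 21896 CPM, was the lowest of the 9.

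Tmsb10 had an equal shift, with a log2 ratio of medians of -2.27, and more spread. Its level was 1880, 2717 and 1512 CPM in dark zone controls and 2489, 1959 and 1958 CPM in light zone controls. With treatment it was 417, 165 and 1059 CPM in dark zone and 1764, 390 and 998 CPM in light zone libraries. The 3 libraries were again below all others, and 2 of the other treated libraries, replicate 3 of each zone, were also below all 6 controls while light zone treated replicate 1 was within their range.

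The ratio between the thymosins did not follow the split. Tmsb4x made 92.4 to 97.0% of the summed thymosin counts in the 3 libraries and 91.2 to 96.0% in the other 9. In controls this share was 92.6% ± 1.25 in the dark zone and 92.9% ± 0.592 in the light zone (SD, n = 3 each), a difference of 0.328 points (exact two-sided permutation test, p = 0.8). Set against each other, the most abundant thymosin and the most abundant actin changed order: the 9 libraries held 6.04 to 11.5 counts of Tmsb4x per count of Actb, and the 3 held 0.226 to 0.50. Both actins together took 8.18 to 12.8% of the 10 genes' counts in the 9 libraries and 48.1 to 63.3% in the 3, and both thymosins 53.0 to 69.5% against 12.6 to 20.5%. The 10 genes together made 3.88 to 4.49% of all counts in the 9 and 4.36 to 5.84% in the 3.

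**Figure D1:**
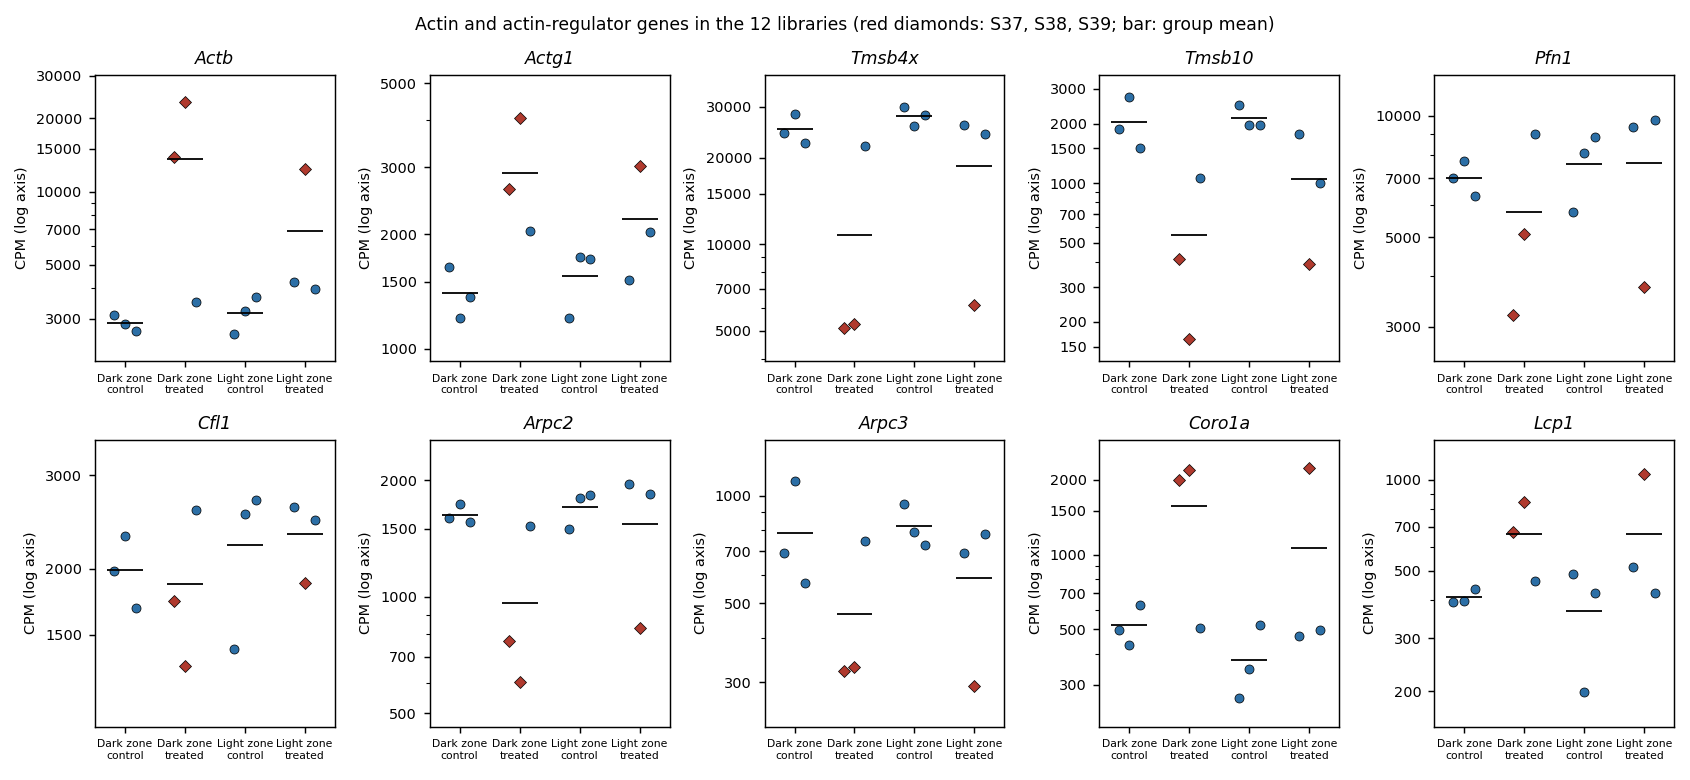
Level of each gene in CPM (log axis) in the 12 libraries, by group; red diamonds are the 3 libraries S37, S38 and S39, blue circles the other 9, and bars group means. The diamonds lie above all circles for Actb, Actg1, Coro1a and Lcp1, below them for Tmsb4x, Tmsb10, Pfn1, Arpc2 and Arpc3, and among them for Cfl1.

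**Figure D2:**
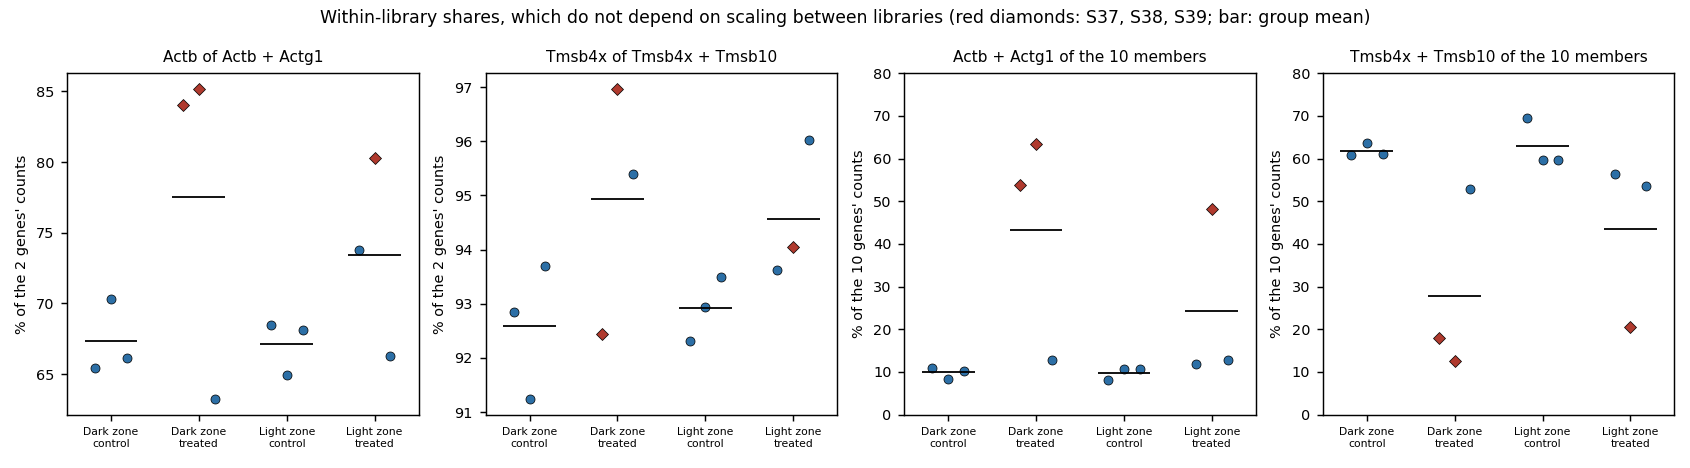
Shares of counts within each library, in percent, by group, with the same symbols; bars are group means. The Actb share of actin counts is above 80% only at the 3 diamonds, the Tmsb4x share of thymosin counts mixes diamonds and circles, and the actin and thymosin shares of the 10 genes trade places at the diamonds.

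Profilin 1 (Pfn1, chromosome 11, 70651850 to 70654644, minus strand) hands monomers to filament ends. Pfn1 measured 7032, 7744 and 6339 CPM in dark zone controls and 5776, 8107 and 8872 CPM in light zone controls. With treatment it was 3206, 5111 and 9012 CPM in dark zone and 9410, 3757 and 9746 CPM in light zone libraries. Treated libraries therefore lay on both sides of the controls: the 3 libraries were below all 6 controls and the other 3 treated libraries above all 6, at 9012 to 9746 against 5776 to 8872 CPM. No other of the 10 genes separated the other 3 treated libraries from the 6 controls, and among all tested genes 2.07% separated them upward and 2.14% downward. This contrast was noticed after the values were seen and carries no test.

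Cofilin 1 (Cfl1, chromosome 19, 5490455 to 5495201, plus strand) was the single gene of the 10 whose ranges overlapped, at 1309 to 1882 CPM in the 3 libraries and 1408 to 2691 CPM in the other 9. Its log2 ratio of medians was -0.51 and turned to 0.17 when CPM were scaled by library totals alone. Of its exon bases, 468 are shared with Snx32 on the opposite strand, and the library kit keeps no strand, so reads there can come from either gene. The count of Cfl1 per count of Pfn1 was 0.541, 0.256 and 0.501 in S38, S39 and S37, and 0.244 to 0.312 in the other 9, so 2 of the 3 libraries had more cofilin relative to profilin transcript and 1 did not.

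Arpc2 and Arpc3 encode subunits of the Arp2/3 complex, and both were lower in the 3 libraries. Arpc2 (chromosome 1, 74236084 to 74268209, plus strand) was at 768, 601 and 830 CPM in them and at 1495 to 1956 CPM in the other 9. Arpc3 (chromosome 5, 122391878 to 122414184, plus strand) was at 324, 331 and 294 CPM in them and at 568 to 1103 CPM in the other 9. The log2 ratios of medians were -1.17 and -1.20, so the subunits shifted by nearly equal amounts, and the count of Arpc2 per count of Arpc3 was 1.82 to 2.83 in the 3 libraries and 1.57 to 2.83 in the other 9.

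Coronin 1A and L-plastin, which bind filaments, were higher in the 3 libraries. Coro1a (chromosome 7, 126699773 to 126707787, minus strand) was at 496, 434 and 627 CPM among dark zone controls and at 264, 346 and 523 CPM in light zone controls. With treatment it was 2002, 2200 and 506 CPM in dark zone and 472, 2229 and 499 CPM in light zone libraries. The 3 libraries agreed closely on Coro1a, the lowest 3.19 times the highest of the other 9, and its rank among all genes was 22 to 27 against 305 to 781. Lcp1 (chromosome 14, 75131101 to 75230842, plus strand) was at 674, 845 and 1043 CPM in the 3 libraries and at 199 to 516 CPM in the other 9, with a log2 ratio of medians of 1.0 against 2.15 for Coro1a. Coro1a shares 26 exon bases with Bola2 and Lcp1 shares 311 and 219 with the non-coding genes Gm15628 and Gm15629, all on the opposite strand.

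In all, 4 of the 10 genes lay above and 5 below the other 9 libraries in all 3 libraries. Over all 12081 tested genes 13.7% lay above and 16.7% below in this way. The genes were chosen with this contrast known, so nothing is read from the counts. The median log2 ratio of the 10 genes was -0.81, beside 0.27 for all genes, whose 5th to 95th percentiles ran from -2.20 to 4.30. Scaling by library totals in place of TMM raised the median of all genes to 0.90. Under it Pfn1 no longer separated (log2 ratio -0.37), leaving 4 genes above and 4 below, and the ratios of Arpc2 and Arpc3 were -0.50 and -0.61, still without overlap. Relative to the median of all genes under either scaling, Cfl1, Pfn1, both Arp2/3 subunits and both thymosins lay lower, and Actb, Actg1, Coro1a and Lcp1 higher.

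Compared per length, as CPM per kilobase of longest transcript, Tmsb4x led in the 9 libraries with a median of 29875, followed by Pfn1 (4060), Tmsb10 (2725) and Actb (1678). Arpc2 (1203), Cfl1 (1051), Actg1 (838) and Arpc3 (830) came next, then Coro1a (284) and Lcp1 (110). The ranges of neighbours in this order overlapped from Pfn1 to Actb and from Arpc2 to Arpc3, whereas Tmsb4x, Coro1a and Lcp1 each stood clear of their neighbours. In the 3 libraries the order of medians began with Actb (7231), Tmsb4x (6104), Pfn1 (1881), Actg1 (1554) and Coro1a (1259).

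The zones were compared in control libraries, a comparison that the 3 libraries enter only through the filter, the scaling and the estimate of the spread. No gene of the 10 was called between light and dark zone by edgeR's quasi-likelihood test: 0 of 10 genes passed an adjusted p of 0.05, as did 0% of the 12081 tested genes (DESeq2 called 113 genes, 0.935%, none of them among the 10), and at an unadjusted p under 0.05 it was 0 of 10 against 4.93%. The log2 differences (light minus dark) were 0.14 for Actb (SE 0.61), 0.16 for Tmsb4x (SE 0.62), 0.11 for Pfn1 (SE 0.44) and -0.46 for Coro1a (SE 0.67), each with an edgeR adjusted p of 1. Light zone values were higher for 8 of the 10 genes, beside 50.1% of all tested genes, with a median difference of 0.09, and every difference was smaller than its SE. No gene of the 10 separated the zones without overlap, where 4.47% of all genes did so upward and 5.6% downward. Fitted on the 9 libraries alone, the SE fell to 0.14 for Actb (difference 0.15), 0.11 for Tmsb4x (difference 0.17) and 0.27 for Coro1a (difference -0.44), and again no gene passed (595 of 12017, 4.95%, had an unadjusted p under 0.05).

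The treatment comparison asks whether blocking costimulation and CD40L changed these transcripts, and its answer rests on which treated libraries are counted. In the dark zone, where 2 of 3 treated libraries are among the 3, mean Actb was 13565 ± 9902 CPM with treatment and 2878 ± 209 CPM in controls (SD, n = 3 each), a log2 difference of 2.24 (SE 0.64). Tmsb4x averaged 10753 ± 9651 against 25061 ± 2979 CPM, a log2 difference of -1.22 (SE 0.63), and the differences were -1.90 (SE 0.67) for Tmsb10 and 1.60 (SE 0.68) for Coro1a. Actb, Actg1 and Lcp1 lay above and Tmsb4x, Tmsb10 and Arpc2 below the dark zone controls in all 3 treated libraries, beside 12.5% and 11.2% of all genes. None passed an adjusted p of 0.05 by edgeR, nor did any of the 12081 genes (0%). DESeq2 called 72 genes (0.596%) and none of the 10, whereas voom with quality weights, which gives less weight to libraries far from the fit, called 3178 genes (26.3%) and 8 of the 10. At an unadjusted p under 0.05 edgeR had 4 of the 10, beside 8.9% of all genes. Since the genes were chosen on these libraries, nothing is read from this count or from that of voom.

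In the light zone, with 1 treated library among the 3, mean Actb was 6860 ± 4750 CPM with treatment and 3168 ± 533 CPM in controls (SD, n = 3 each), a log2 difference of 1.11 (SE 0.62). The differences were -0.58 (SE 0.62) for Tmsb4x, -1.02 (SE 0.65) for Tmsb10 and 1.5 (SE 0.68) for Coro1a. Only Actb lay above and only Tmsb10 below the controls in all 3 treated libraries, beside 5.82% and 5.49% of all genes. Again edgeR called none of the 10 and 0% of all genes, with 0 of the 10 and 7.36% of all genes at an unadjusted p under 0.05, and DESeq2 called 216 genes (1.79%), none of the 10. Between the zones of treated mice, and for the difference of the treatment effect between zones, edgeR likewise called 0 of 12081 genes (0%), with 2.06% and 2.28% at an unadjusted p under 0.05, and DESeq2 called 1 gene (0.00828%) and 16 genes (0.132%), none of the 10. Treated light minus treated dark zone was -0.98 (SE 0.61) for Actb and 0.80 (SE 0.62) for Tmsb4x, in groups that hold 1 and 2 of the 3 libraries. Without these 3 it was 0.25 (SE 0.21) for Actb, the opposite direction, and 0.21 (SE 0.17) for Tmsb4x.

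Without the 3 libraries, 1 treated library was left in the dark zone and 2 in the light zone, and the fit assumes that the lone library varies as the other groups do. The differences shrank to 0.30 (SE 0.20) in the dark and 0.39 (SE 0.16) in the light zone for Actb, and to -0.18 (SE 0.16) and -0.15 (SE 0.12) for Tmsb4x. For Tmsb10 they were -0.93 (SE 0.44) and -0.61 (SE 0.33), and for Coro1a -0.02 (SE 0.38) and 0.38 (SE 0.30). The Pfn1 differences moved from -0.29 in the dark and 0.01 in the light zone with all libraries to 0.37 (SE 0.23) and 0.35 (SE 0.19), so that of the dark zone changed sign. No gene passed an adjusted p of 0.05 by edgeR in either zone (0% of 12017, with 3.98% and 7.4% at an unadjusted p under 0.05). The smallest adjusted p among the 10 was that of Actb in the light zone (0.672 by edgeR). Within these 3 treated libraries the count of Tmsb4x per count of Actb was 6.24, 6.09 and 6.04, below the 7.67 to 11.5 of all 6 controls, a contrast noticed after the values were seen and left without a test.

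**Figure D3:**
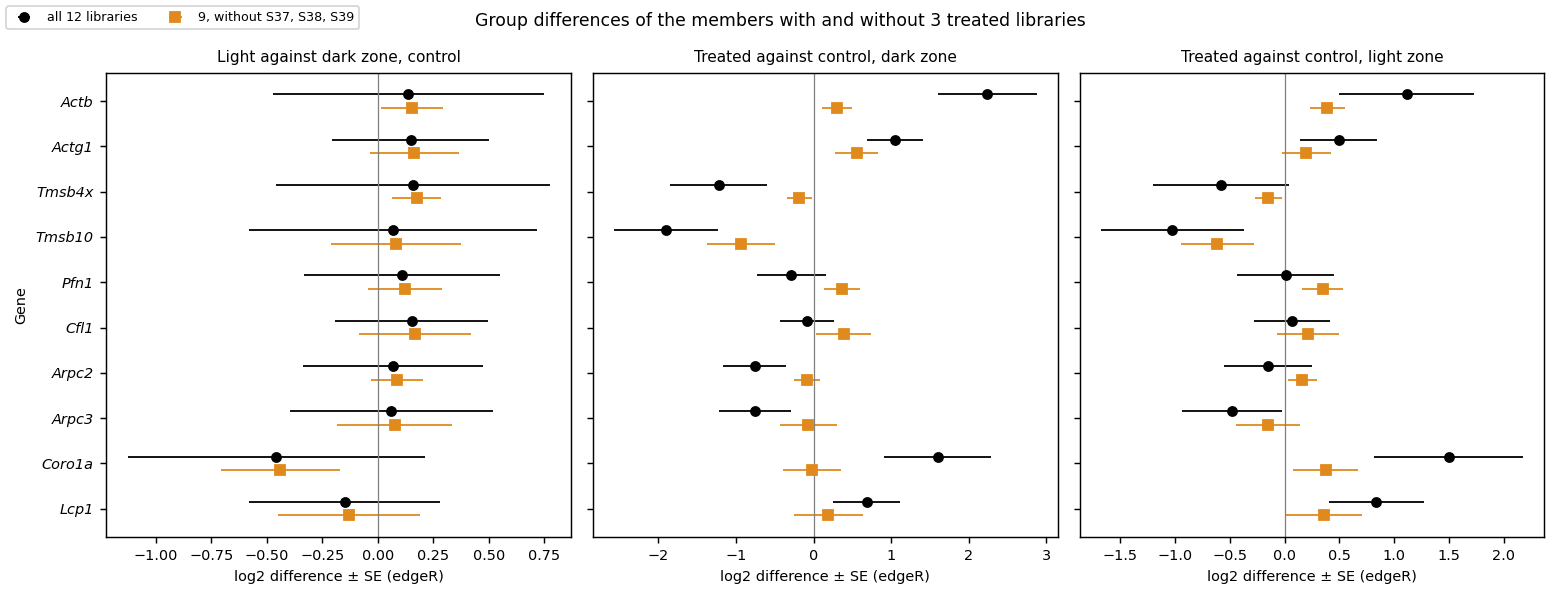
Log2 differences with their SE from edgeR for the 10 genes, in all 12 libraries (black circles) and without the 3 libraries S37, S38 and S39 (orange squares). The control zone differences stay near 0 in both fits, while the treatment differences of Actb, Tmsb4x and Coro1a move toward 0 without the 3 libraries and those of Pfn1 move up.

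Relations between 4 pairs of these genes were tested within the other 9 libraries, since the 12 fall into separate clusters. Tmsb4x and Tmsb10 rose and fell together in log2 CPM (Pearson r = 0.818, exact permutation p = 0.00735, Benjamini-Hochberg adjusted over the 4 pairs 0.0294; Spearman rho = 0.85, exact permutation p = 0.00607, adjusted 0.0243), and r was 0.688 without the 2 libraries farthest from the median of Tmsb4x. Actb and Actg1 did not pass the adjustment (r = 0.688, exact permutation p = 0.0442, adjusted 0.0884; rho = 0.65, exact permutation p = 0.0666, adjusted 0.133), with r = 0.868 without the 2 libraries farthest from the median of Actb. Actb and Tmsb4x, which parted so widely in the 3 libraries, had r = -0.195 in the 9 (exact permutation p = 0.605, adjusted 0.806). Arpc2 and Arpc3 had r = -0.00864 (exact permutation p = 0.982), a value that depends on the scaling: on library totals it was -0.680 (exact permutation p = 0.0471, adjusted 0.0628). These 9 libraries mix zones and treatments, with at most 3 of a kind, so within-group values are not given. The permutations mixed groups too, and Tmsb10 was at 998 to 1764 CPM in the treated libraries among the 9 and 1512 to 2717 CPM in controls. Both thymosins are in the shortest of 10 length classes of genes, described below. The median of that class ran from -0.16 to 0.16 over the 9, in log2 CPM against the controls. What part these have in the r of the thymosins was not tested, and no share of all gene pairs with such an r was computed.

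The genes most like Actb and Tmsb4x were taken by Pearson r of log2 CPM over the 12 libraries, among 7267 genes with a mean of at least 10 CPM. The 12 points share their libraries and the split into 3 and 9, so these r are a description. Those of Actb included Lrrc58 (r = 0.988), Ltbp3, a binder of latent TGF-beta (0.979), Irs2, an insulin receptor adaptor (0.977), and Kcnma1, a potassium channel (0.974). Over the 9 libraries alone their r with Actb was 0.752, 0.731, 0.915 and 0.696. Irs2 stood at only 0 to 0.117 CPM in these 9, so its 0.915 rests on very few counts. For Tmsb4x they were Kif1c, a kinesin (0.999), Arhgdib (0.996), Eya3 (0.995), Stab1 (0.994) and Atp6v0e, a proton pump subunit (0.993), and in the 9 libraries 0.987, 0.861, 0.870, 0.852 and 0.888. Coro1a was at rank 10 in likeness to Actb (0.938), ahead of Actg1 at rank 15 (0.925), yet in the 9 libraries its r with Actb was 0.330. Pfn1 had r = -0.701 with Actb over 12 libraries and 0.926 over the 9.

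Other genes of actin biology were described from lists by role. Of 77 listed genes besides the 10, 20 (26%) lay above and 13 (16.9%) below the other 9 libraries in all 3 libraries, beside 13.7% and 16.7% of all tested genes. None was called by edgeR in any group comparison (0% of all genes), and at an unadjusted p under 0.05 there were 0 of the 77 for zone in controls (4.93% of all genes) and 2 for zone in treated cells (2.06%). For treatment there were 9 in the dark zone (11.7%, beside 8.9% of all genes) and 9 in the light zone (11.7%, beside 7.36%), and for the difference of these effects 1 (2.28% of all genes). The muscle actins Acta1 and Acta2 were low, at 1.18 to 18.7 CPM over all libraries, so Actb and Actg1 made up nearly all counts of the listed actins. The counts by role given next set the 3 libraries against the other 9, include the 10 genes, which were chosen with this contrast known, and stand beside the same 13.7% higher and 16.7% lower of all tested genes.

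Among 8 listed monomer-binding genes, 4 were lower (Tmsb4x, Tmsb10, the minor thymosin Tmsb15b1 and Pfn1) and 1 higher. The higher one was Twf2, a twinfilin that caps ends and binds monomers, at 82.7 to 122 CPM in the 3 libraries against 10.6 to 51.5 CPM. Cap1, which recycles monomers with cofilin, overlapped at 139 to 211 against 49.97 to 177 CPM. In the list of cofilin and filament disassembly, 6 of 15 genes were higher and 2 lower. Wdr1, a cofilin cofactor, overlapped at 254 to 364 against 51.1 to 278 CPM, and Gmfg, which removes Arp2/3 branches, was lower at 40.6 to 67.7 against 125 to 417 CPM.

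None of the 9 Arp2/3 complex genes was higher and 5 were lower (13.7% and 16.7% of all tested genes). They were Arpc2 and Arpc3, both chosen with this contrast known, and Actr2, Arpc5 and Arpc5l. Arpc5 stood at 392 to 452 CPM in the 3 libraries against 476 to 1176 CPM, and its paralog Arpc5l at 523 to 616 against 1114 to 1952 CPM. The other 4 subunits, Actr3, Arpc1a, Arpc1b and Arpc4, overlapped with log2 ratios of medians of 0.41 to 1.19, so the transcripts of this complex did not shift alike. Among 15 activators and formins, Brk1, a small subunit of the WAVE complex, was lower at 203 to 284 against 549 to 990 CPM, and Cyfip2 of the same complex overlapped at 195 to 359 against 75.9 to 215 CPM.

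In the list of capping, severing and bundling genes, 6 of 18 were higher, Lcp1 among them, and 2 lower. The lower ones were both alpha subunits of capping protein, Capza1 at 246 to 292 against 369 to 1132 CPM and Capza2 at 137 to 236 against 463 to 1260 CPM. Of 10 myosin and tropomyosin genes 5 were higher and 3 lower, the latter all light chains, with Myl6 at 449 to 631 against 1325 to 1945 CPM and Myl12a at 333 to 440 against 762 to 1505 CPM. Of 7 membrane linkers 3 were higher, while the most abundant ones, Msn (282 to 429 against 99.7 to 299 CPM) and Lsp1 (165 to 204 against 49.8 to 205 CPM), overlapped. Srf, the transcription factor that reads monomer levels through its cofactors and drives actin genes, overlapped at 21.7 to 34.4 against 2.83 to 41.9 CPM.

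**Figure D4:**
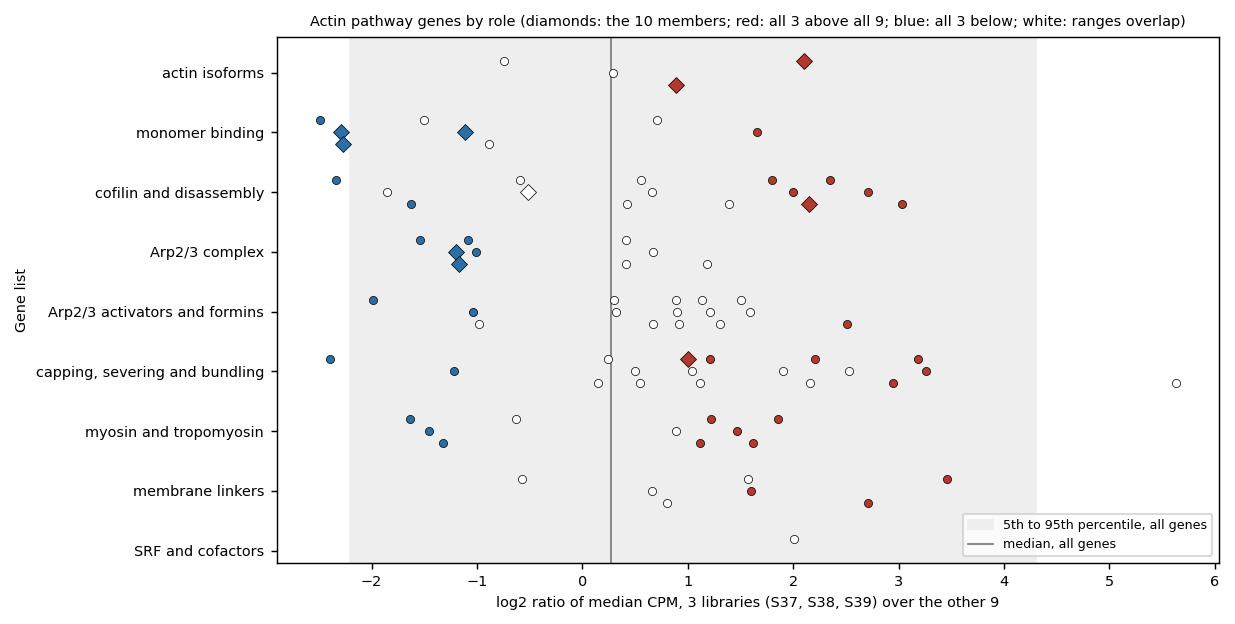
Log2 ratio of the median CPM in the 3 libraries to that in the other 9 for each listed gene, by role; diamonds are the 10 genes, red marks genes above and blue below all other libraries, white those that overlap, and the grey band spans the 5th to 95th percentile of all genes. No Arp2/3 complex gene is red, the thymosins lie at the lower edge of the band, and Actb and Coro1a lie inside it.

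SRF binds the CArG box, and actin promoters are known targets, so promoters were read from RefSeq (GRCm38.p6, 250 bases before to 50 after each start). Of the 10 genes 9 were matched, with 13 promoters; Actb had no entry. A CArG box was found in 1 of the 13, that of Actg1, with its first base 90 bases before the start. It was found in 1.29% of promoters of tested genes and in 1.63% of all 32851 promoters. The promoter of Actg1 (chr11:120348446-120348745, minus strand) is shown with the box in capitals.
Actg1: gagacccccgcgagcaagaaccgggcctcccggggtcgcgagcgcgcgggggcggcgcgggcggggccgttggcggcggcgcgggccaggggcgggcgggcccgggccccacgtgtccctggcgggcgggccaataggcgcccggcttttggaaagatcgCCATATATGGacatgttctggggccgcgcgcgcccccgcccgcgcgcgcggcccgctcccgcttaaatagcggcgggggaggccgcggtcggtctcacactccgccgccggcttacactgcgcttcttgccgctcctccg
The motif GGGCGG, on either strand, was found in 12 of the 13 and in 60.8% of promoters of tested genes, CCAAT in 2 of 13 (38.4%) and TATAAA in 0 of 13 (7.39%). These are matches of letters in a window and no evidence of binding.

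Other measures moved with the same 3 libraries. The counts of markers without overlap given next stand beside 13.7% higher and 16.7% lower of all tested genes. Summed macrophage markers were 88.2 to 226 CPM in the 3 and 6.49 to 66.2 CPM in the other 9 (8.29 to 66.2 CPM in the other treated libraries), with 6 of 10 markers higher without overlap and 5 at 0 in at least 1 of the 9. Of 5 listed neutrophil markers 4 were higher, with S100a8 and Camp at 0 in all 9, but the sums overlapped (1.68 to 59.8 against 0 to 2.28 CPM). In S37 S100a8 and Camp stood at only 0.0776 and 0.0259 CPM, where 3 counts make 0.0776 CPM. Of 9 T cell markers 4 were higher, although their sums overlapped (141 to 308 against 94.5 to 231 CPM). As background, expression of the 10 genes is not confined to B cells, for those that were lower as for those that were higher. Summed germinal center B cell markers were lower, at 6605 to 7476 against 9058 to 12542 CPM. The sum of plasma cell markers was also lower, at 1310 to 2411 against 6431 to 11545 CPM, most of it counts of Jchain. Of 5 listed plasma cell markers only 1, Jchain, was lower without overlap. The rest overlapped, with Xbp1 at 133 to 238 against 28.9 to 225 CPM. The part of these cells in the levels of the 10 genes was not tested.

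In the 3 libraries the shortest transcripts differed from the rest. The tested genes with an annotated length (11807, 97.7%) were split into 10 classes of equal size by longest transcript, class 1 the shortest, and each library was set against the mean of the 6 controls in log2 CPM. In class 1 (65 to 1296 bases) the median was -1.11 to -0.98 in the 3 libraries and -0.16 to 0.16 in the other 9, and in class 4 (2347 to 2834 bases) it was 0.69 to 0.90 against -0.06 to 0.21. There was no steady trend over all classes: in class 10, the longest, the median was 0.20 to 0.45 against -0.06 to 0.06, and Spearman's rho with length across genes, which are not independent replicates, was 0.108 to 0.152 in the 3 libraries and -0.0852 to 0.0741 in the other 9. Tmsb4x (864 bases), Tmsb10 (690) and Arpc3 (899) belong to class 1, and their own values in the 3 libraries were -2.37 to -2.10, -3.63 to -2.30 and -1.42 to -1.25, all below the medians of that class. Arpc2 (1439 bases) and Coro1a (1747) are in class 2, whose median was 0.23 to 0.37, yet Arpc2 stood at -1.47 to -1.0 and Coro1a at 2.21 to 2.37. Actb, Actg1 and Pfn1 are in class 3, with a median of 0.57 to 0.72, and stood at 2.04 to 2.96, 0.85 to 1.47 and -1.17 to -0.50. Within classes 2 and 3, members of like length moved in opposite directions. Tmsb4x, Tmsb10 and Arpc3 all moved down, as the median of class 1 did. What part length has in the shifts of the 10 genes was not tested.

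**Figure D5:**
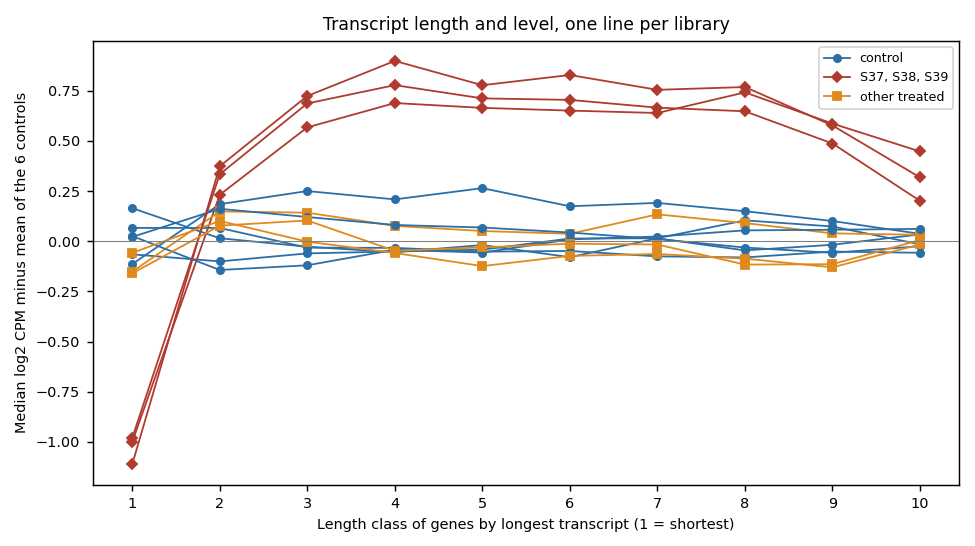
Median log2 CPM of each library minus the mean of the 6 controls, for 10 length classes of genes by longest transcript, 1 line per library (red diamonds S37, S38 and S39, orange squares other treated, blue circles control). The 3 red lines start near -1 in class 1 and rise to between 0.69 and 0.90 in class 4, while the other 9 lines stay between -0.16 and 0.26.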

How the data were processed

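Libraries were made with the SMART-Seq v4 Ultra and Nextera XT kits, per the labels' protocols, which keep no strand and add no molecular identifiers. The authors used BWA and the build mm10, per the submitters' processing notes; no source used here gives versions, the counting program, its annotation or its gene filter. The deposited values are unscaled expected counts for each symbol. Values are whole or lie midway between whole numbers and were rounded up; among the 10 genes 15 of 120 values were midway, in Actg1, Coro1a and Lcp1. Blank cells (17 to 828 a file, none in the 10 genes) were read as 0.

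Genes were tested in R 4.3.3 with edgeR 4.0.16 (TMM, filterByExpr at its defaults of 10 counts and a total of 15, robust quasi-likelihood fit over all 12 libraries with a term per group, no block), two-sided, with Benjamini-Hochberg adjustment over 12081 genes and a threshold of 0.05. SE is the absolute difference over the square root of F. Log2 CPM used a prior count of 2. Other tools were DESeq2 1.42.0 and limma 3.58.1 (voom with quality weights), and other settings are named below. The edgeR fit alone was run on simulated counts with known changes in light zone controls. Its outcome is not given here, so nothing is read from it. Ratios of medians have no test. Positions and lengths come from GENCODE M21, and promoters from RefSeq.

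The 10 genes, the lists and the tests were chosen with earlier results of these data known. Beside the 10 genes, the 2 most abundant genes of each role list, the 5 genes most like Actb and Tmsb4x, and marker lists are named; other names were chosen after their values were seen, and a few genes and 1 role list are not reported here. Intervals on counts would cover counting error only.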

Additional observations from a re-analysis of the deposited data

How the results depend on the processing

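Among the 10 genes, the control zone differences kept their direction and stayed short of the threshold in 202 of 210 alternatives. The other 8 were reversals on leaving out 1 library. Ranges of the log2 difference over the leave-one-out fits were -0.13 to 0.38 for Arpc3, -0.0128 to 0.39 for Cfl1, -0.40 to 0.15 for Lcp1, -0.0198 to 0.27 for Pfn1 and -0.11 to 0.33 for Tmsb10, all with an edgeR adjusted p of 1. Arpc3 turned without dark zone control 1, dark zone control 3 or light zone control 1. Cfl1 and Pfn1 turned without light zone control 3, Lcp1 without light zone control 2, and Tmsb10 without dark zone control 3 or light zone control 1. The zone difference of the Actb share ranged from -1.10 to 1.35 points and turned without light zone control 2 (0.953) or dark zone control 2 (1.35), and that of the Tmsb4x share ranged from -0.349 to 0.876 and turned without dark zone control 2. The cause was not tested. On CPM by library totals the relation of Actb with Actg1 passed the adjustment (r = 0.735, exact permutation p adjusted 0.0465), though not by Spearman rho (0.6, exact permutation p adjusted 0.129), and that of Arpc2 with Arpc3 moved to r = -0.680 (exact permutation p adjusted 0.0628).

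Where edgeR called 0 genes, DESeq2 called 113 for zone in controls, 1 for zone in treated, 72 and 216 for treatment in the dark and light zone and 16 for the difference of these effects, none of them among the 10. Voom with quality weights called 1 for zone in controls and 3178 (26.3% of all tested genes) for treatment in the dark zone, 8 of the 10 genes among them. The 10 genes were chosen with these treated libraries in view, so nothing is read from that count. Leaving out any of the 12 libraries left edgeR at 0 in every comparison. Of the 840 alternatives for the 10 genes in comparisons that involve treated libraries, 37 moved beyond the spread, among them 6 without dark zone treated replicate 3 and 3 without light zone treated replicate 2. Over the leave-one-out fits the dark zone treatment difference ran from 1.60 (without treated replicate 2) to 2.69 (without 3) for Actb, 1.27 (without 2) to 2.02 (without 3) for Coro1a, -2.27 (without 3) to -0.89 (without 1) for Tmsb4x and -2.81 (without 3) to -1.47 (without 2) for Tmsb10. In the light zone, leaving out treated replicate 2 gave the value nearest 0 for each of these genes: 0.38 for Actb (up to 1.38 otherwise), 0.37 for Coro1a (up to 1.85), -0.16 for Tmsb4x (down to -0.89) and -0.62 for Tmsb10 (down to -1.62).

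Replicate numbers were not taken as pairs: same-numbered libraries of the zones had deviations correlated at -0.307 to 0.539, over 0.1 in 3 of 6 pairs. With the replicate block edgeR called 0 genes in each comparison, and the sign-flip test of both shares gave an exact p of 1.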

Other observations

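Paralogs and partners of the 10 genes, chosen after their values were seen, also parted in the 3 libraries; the values carry no test. Over all tested genes 13.7% were higher and 16.7% lower in the 3 libraries without overlap, so nothing is read from the counts here. All 4 listed coronins were higher than in the other 9 libraries without overlap. Besides Coro1a, Coro1b was at 250 to 287 against 18.7 to 158 CPM and Coro1c at 87.0 to 102 against 1.45 to 19.0 CPM. Coro7 separated narrowly, at 42.4 to 51.7 against 2.98 to 38.6 CPM. Non-muscle myosin had its heavy chain Myh9 higher, at 51.9 to 102 against 13.01 to 35.7 CPM, and its light chains Myl12a, Myl12b (185 to 302 against 440 to 988 CPM) and Myl6 lower.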
